A study of Mus musculus with 14 samples.

Results

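A set of 45 mitotic genes was followed in mSCC-38 cells, a mouse line isolated from a chemically induced skin carcinoma. The set was drawn up by name as genes of the mitotic kinases, the spindle and the kinetochore, and it was chosen with earlier results of these arrays known. Each gene was read through its brightest probe on a 1-colour Agilent array, and all 45 were among the 21370 genes that could be tested. Each of these brightest probes was well above background on all 14 arrays, and none was saturated.

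At the start of mitosis the kinase Cdk1, bound to a B-type cyclin, drives chromosome condensation and the building of the spindle. Microtubules of the spindle attach to chromosomes at kinetochores, and unattached kinetochores keep the spindle assembly checkpoint on, which blocks the anaphase-promoting complex until every chromosome is held. In dividing cells, keratinocytes of the skin included, most of these genes are transcribed late in the cycle from promoters bound by B-Myb, FoxM1 and NF-Y. The same promoters are kept silent in resting cells by repressor complexes that carry E2F4.

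Cells had been transfected with Si1AK or Si2AK, distinct siRNAs against the transcript AK144841, or with the control siRNA SiC, by means of the reagent RNAimax, and were collected after 72 h. Untransfected cells (NT) were a further control, with no collection time in the labels. There were 4 Si1AK, 3 Si2AK, 3 SiC and 4 NT arrays of total RNA, with an RNA integrity number of 9 and 0.2 µg of input for each. All groups were the same cell line, and the labels do not state whether replicates came from separate cultures. The p-values therefore reflect only how far these samples scatter, and that scatter could be technical. The comparisons with SiC ask what each siRNA changed beyond transfection, and those with NT include transfection itself. AK144841 itself was not analysed here, and the knockdown is therefore not checked by any value given.

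The arrays lay on 2 slides of 7, and slide 1 held only replicate 1 of SiC while slide 2 held only replicate 3 of Si2AK. SiC replicate 1 and Si2AK replicate 2 stood apart, with a median processed signal of 271 and 107.5 and 90.5% and 84.9% of spots well above background. On the other 12 arrays the median signal was 23.5 to 58.7 and the share was 52.7% to 60.1%. Of 8 keratinocyte markers, 6 were above background on all 14 arrays, among them Krt5 and Krt14, while Cdh1 passed on 2. Of the markers of other cells, 3 of 7 for fibroblasts, 4 of 7 for leukocytes, 3 of 5 for endothelium and 2 of 5 for melanocytes were above background on all arrays. The defining leukocyte gene Ptprc passed on 3 arrays, and the melanocyte gene Tyrp1 on 0. Some keratinocyte markers changed too: Sfn, Trp63 and Krt14 were higher with Si2AK than with SiC (0.88, 0.58 and 0.36), and Krt18, Krt14 and Krt5 were lower with Si1AK than in NT (-0.45, -0.40 and -0.35). Krt8 and Sfn were higher with Si2AK than in NT (1.03 and 0.59). Of the markers of other cells, Pdgfra was higher with Si2AK than with SiC (0.84), and none was called with Si1AK against SiC. With Si1AK, Col1a1, Cd68, Cdh5 and Mlana were higher than in NT (1.44, 0.84, 1.27 and 1.47). With Si2AK, Dcn and Pdgfra were higher than in NT (1.27 and 1.14) and Itgam was lower (-0.56). The part of these markers in the changes of the mitotic genes was not tested.

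Mitotic genes fell with both siRNAs, most clearly against untransfected cells, and none of the 45 was called higher in any comparison. Levels are log2 signals minus the 75th percentile of the array, and a gene was called at a limma adjusted p below 0.05 over all genes. With Si1AK, 6 of 45 members were lower than with SiC, where 1.23% of all genes were called lower, and 0 were higher, where 3.18% were. With Si2AK, 13 were lower than with SiC and 0 were higher, against 4.66% and 8.5% of all genes. Compared with NT, 21 members were lower with Si1AK and 25 with Si2AK, where 3.03% and 7.67% of all genes were called lower. No member was higher than NT with either siRNA, against 4.03% and 7.96% of all genes. Each siRNA was set against the same SiC and NT arrays, so these counts are not independent of each other.

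The changes were modest in size and spread over most of the set. The median log2 difference of the 45 members was -0.32 for Si1AK and -0.34 for Si2AK against SiC, beside -0.06 and -0.02 over all genes. Against NT it was -0.44 for Si1AK and -0.45 for Si2AK, beside -0.09 and 0.02 over all genes. Called members were 1.33- to 1.79-fold lower with Si1AK than in NT and 1.25- to 1.67-fold lower with Si2AK than in NT. In bulk RNA, fewer cells in mitosis and less RNA per mitotic cell cannot be told apart. SiC against NT had a median of -0.08 over the members and 0 calls.

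**Figure D1:**
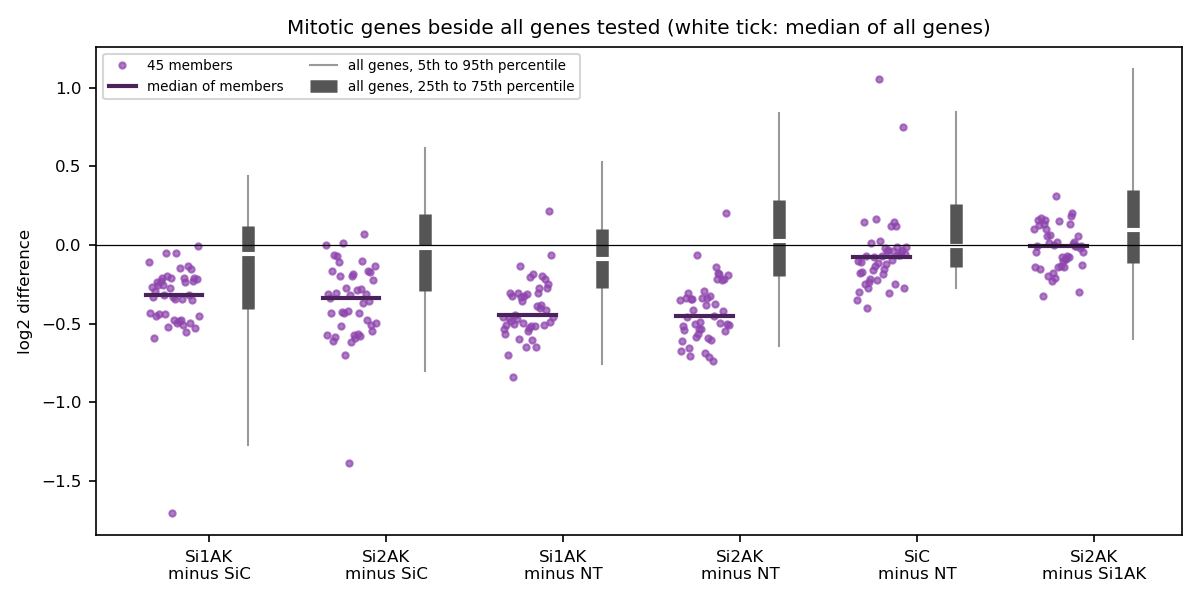
Log2 differences of the 45 mitotic genes (purple points, with their median as a bar) beside those of all 21370 genes tested (grey bars from the 25th to the 75th percentile, thin lines from the 5th to the 95th, white tick at the median) in 6 comparisons. The member medians lie at -0.32 and -0.34 for Si1AK and Si2AK minus SiC, at -0.44 and -0.45 for the siRNAs minus NT, and close to 0 for SiC minus NT and Si2AK minus Si1AK.

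The shift was visible on every siRNA array. The median over the members of the difference from the NT mean was -0.45, -0.53, -0.30 and -0.37 on the Si1AK arrays and -0.37, -0.45 and -0.47 on the Si2AK arrays. The same median was -0.23, -0.05 and -0.01 on the SiC arrays and -0.04 to 0.04 on the NT arrays. All 7 siRNA arrays were thus below all 7 control arrays, and the SiC array closest to them was replicate 1, the array of raised signal. After quantile normalization that array was at 0.05, the highest of the 14, while the siRNA arrays were at -0.25 to -0.47.

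**Figure D2:**
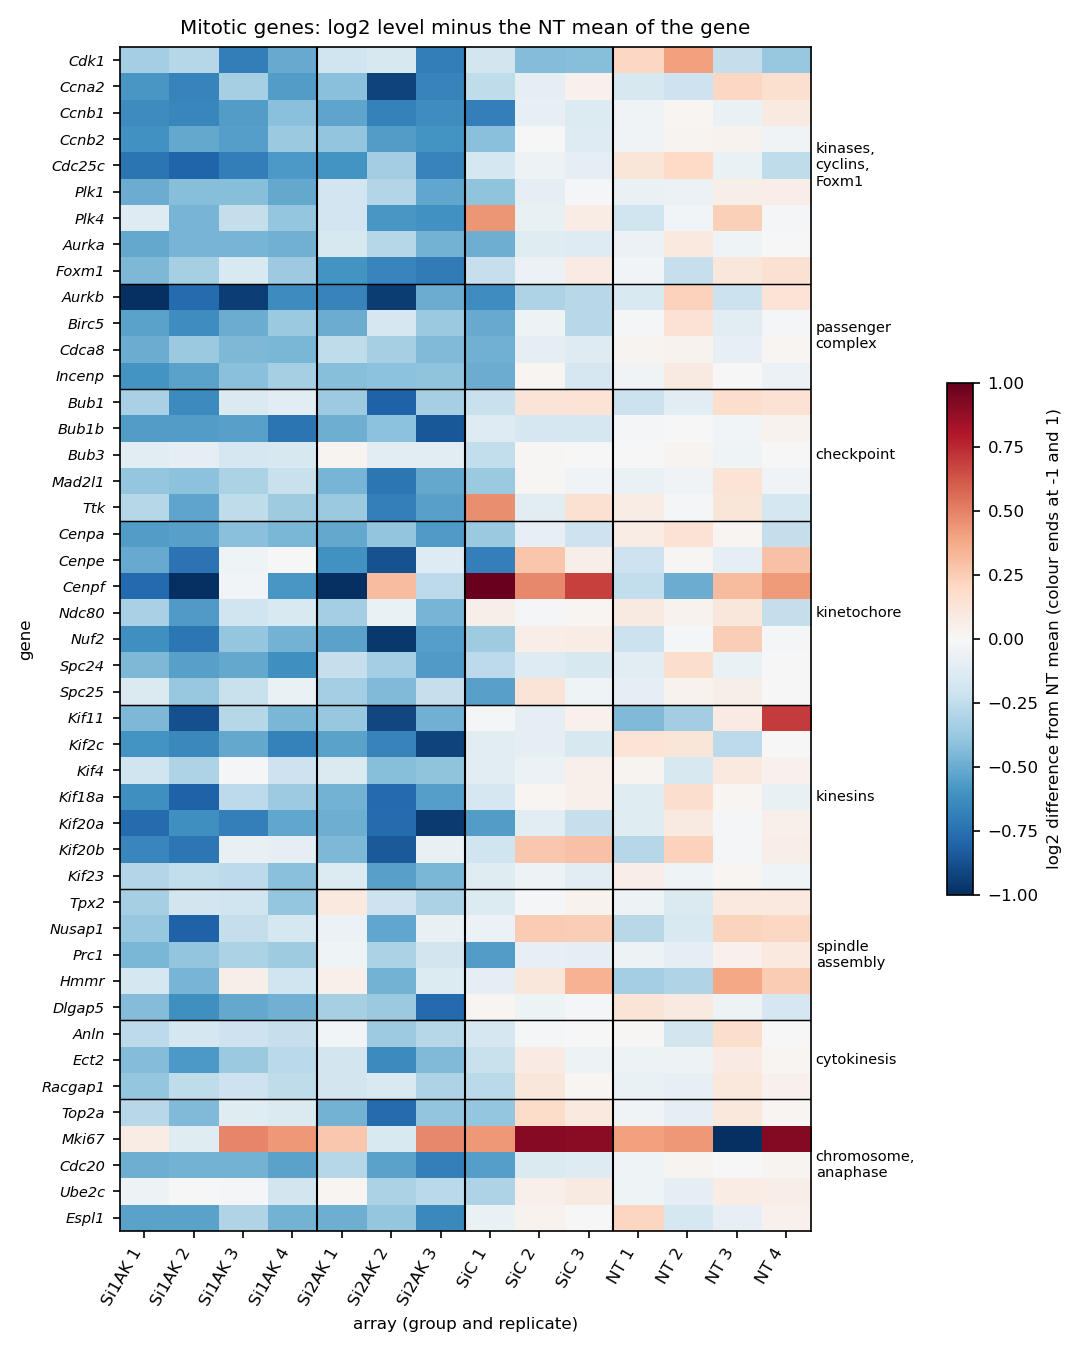
Each row is a mitotic gene and each column an array, and the colour gives the log2 level minus the mean of the gene in NT, with colours ending at -1 and 1. Blue covers most genes of the Si1AK and Si2AK arrays, SiC replicate 1 is blue for many genes and red for Plk4, Ttk and Cenpf, and Mki67 is far below its group on NT replicate 3.

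The 6 members called lower with Si1AK than with SiC were Cdc25c, Dlgap5, Kif2c, Espl1, Bub1b and Cenpf. Kif2c encodes a kinesin that takes microtubules apart at kinetochores and corrects wrong attachments. It was at 0.60, 0.56, 0.69 and 0.53 on the Si1AK arrays and 0.66, 0.53 and 0.27 on the Si2AK arrays, against 1.09, 1.11 and 1.04 in SiC and 1.34, 1.32, 0.94 and 1.20 in NT. All siRNA arrays were below all control arrays. The log2 difference from SiC was -0.49 ± 0.11 with Si1AK (SE, limma adjusted p = 0.0342) and -0.59 ± 0.12 with Si2AK (adjusted p = 0.00825). From NT it was -0.61 ± 0.10 with Si1AK (adjusted p = 0.00522) and -0.71 ± 0.11 with Si2AK (adjusted p = 0.00149). A second Kif2c probe gave -0.57 and -0.61 against SiC and -0.71 and -0.76 against NT, with Si1AK and Si2AK in that order.

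Bub1b encodes BubR1, the checkpoint protein that helps hold the anaphase-promoting complex in check. Its levels were 1.83, 1.84, 1.85 and 1.67 with Si1AK and 1.91, 1.98 and 1.54 with Si2AK, against 2.27, 2.22 and 2.22 with SiC and 2.38, 2.40, 2.37 and 2.43 in NT. Every siRNA array was lower than every control array, and the SiC arrays were lower than the NT arrays. The log2 differences from SiC were -0.44 ± 0.10 with Si1AK (adjusted p = 0.0277) and -0.43 ± 0.10 with Si2AK (adjusted p = 0.0202). Against NT the differences were -0.60 ± 0.09 with Si1AK (adjusted p = 0.00269) and -0.58 ± 0.10 with Si2AK (adjusted p = 0.00205).

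Espl1 encodes separase, the protease that cuts cohesin to let sister chromatids part. Its levels were 0.70, 0.70, 0.93 and 0.76 with Si1AK and 0.75, 0.84 and 0.58 with Si2AK, against 1.16, 1.27 and 1.22 with SiC and 1.45, 1.05, 1.15 and 1.27 in NT. The groups of siRNA and control arrays did not overlap. The log2 difference from SiC was -0.45 ± 0.10 with Si1AK (adjusted p = 0.0343) and -0.49 ± 0.11 with Si2AK (adjusted p = 0.0133). From NT it was -0.46 ± 0.10 with Si1AK (adjusted p = 0.0147) and -0.51 ± 0.10 with Si2AK (adjusted p = 0.00695).

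Cdc25c encodes a phosphatase that switches on Cdk1 at the entry into mitosis. It was at -0.23, -0.30, -0.20 and -0.08 on the Si1AK arrays and -0.10, 0.15 and -0.17 on the Si2AK arrays, against 0.32, 0.44 and 0.41 in SiC and 0.62, 0.70, 0.43 and 0.24 in NT. Again no siRNA array reached a control array. The difference from SiC was -0.59 ± 0.12 with Si1AK (adjusted p = 0.0157) and -0.43 ± 0.12 with Si2AK (adjusted p = 0.0418), and that from NT was -0.70 ± 0.11 and -0.54 ± 0.12 (adjusted p = 0.00291 and 0.00886).

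Dlgap5 encodes HURP, a protein that steadies spindle microtubules near chromosomes. Its levels were -0.18, -0.36, -0.26 and -0.23 with Si1AK and -0.08, -0.12 and -0.52 with Si2AK, against 0.27, 0.20 and 0.24 with SiC and 0.38, 0.35, 0.20 and 0.09 in NT. All siRNA arrays were below 0 and all control arrays above it. It was lower than SiC by -0.50 ± 0.11 with Si1AK (adjusted p = 0.0303) and by -0.48 ± 0.12 with Si2AK (adjusted p = 0.022), and lower than NT by -0.51 ± 0.10 and -0.49 ± 0.11 (adjusted p = 0.0122 and 0.0113). On a dimmer second Dlgap5 probe the siRNA and control arrays overlapped. That probe was at -1.52, -1.56, -1.93 and -1.92 with Si1AK and at -1.46, -1.50 and -2.04 with Si2AK. SiC was at -0.71, -1.55 and -1.46 there, and NT replicates 1, 3 and 4 were at -0.99, -1.59 and -1.53.

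**Figure D3:**
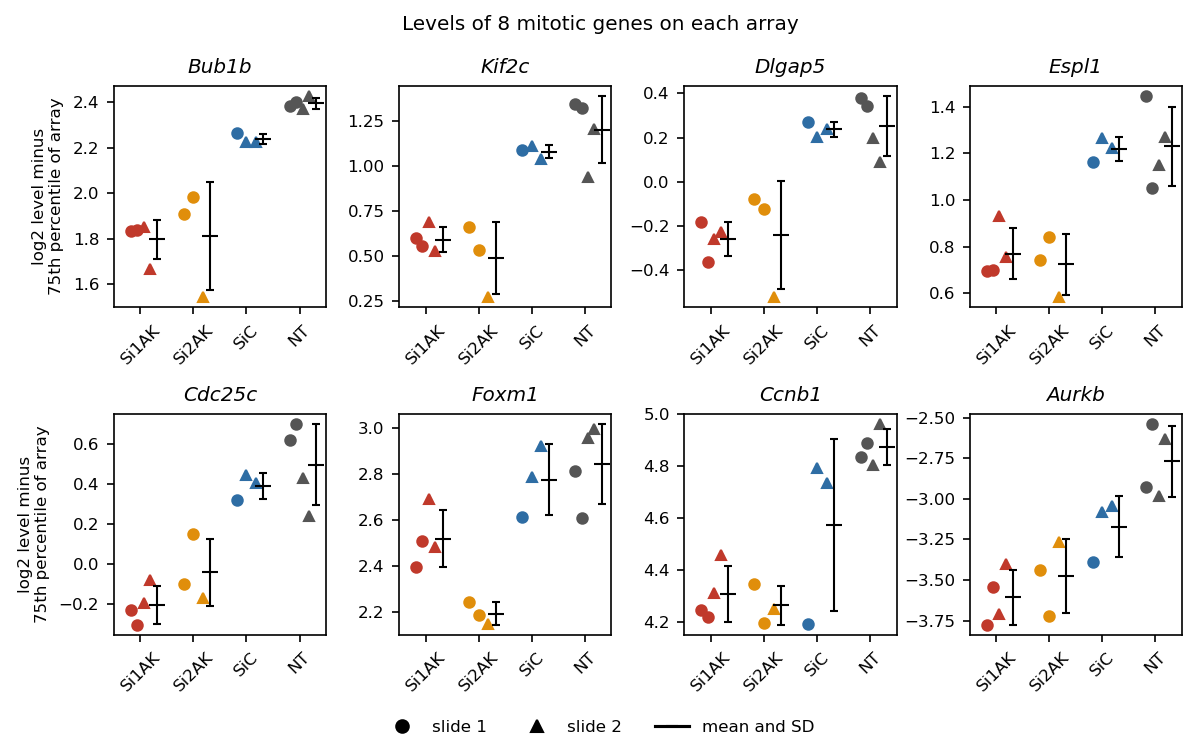
Levels of 8 mitotic genes on each array (log2 signal minus the 75th percentile of the array), with circles for slide 1, triangles for slide 2 and the mean with its SD beside each group. On the brightest probes shown, Bub1b, Kif2c, Dlgap5, Espl1 and Cdc25c show no overlap between siRNA and control arrays. Foxm1 is lowest with Si2AK, and the low SiC point of Ccnb1 (4.19) is replicate 1.

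The remaining call of Si1AK against SiC was Cenpf, read from a dim probe. Cenpf encodes a large kinetochore and nuclear matrix protein that peaks before mitosis. It was at -4.85, -5.28, -4.10 and -4.65 with Si1AK and -5.12, -3.76 and -4.34 with Si2AK, against -2.07, -3.59 and -3.39 with SiC and -4.32, -4.57, -3.76 and -3.65 in NT. The value of -2.07 belonged to SiC replicate 1. The log2 difference of Si1AK from SiC was -1.70 ± 0.43 (adjusted p = 0.0482). It was -1.23 without SiC replicate 1 (adjusted p = 0.137), -0.56 after quantile normalization (adjusted p = 0.536) and -0.28 in the authors' value table (adjusted p = 0.492). Against NT it was -0.65 ± 0.40 with Si1AK and -0.33 ± 0.43 with Si2AK, neither called.

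Promoters of the set are shown because most members had lower levels with both siRNAs and such genes are known to share promoter elements. RefSeq (GRCm38.p6) windows from 250 bases before to 50 after the transcription start were matched for 36 of the 45 genes. The motifs searched on both strands were TTTGAA, the core of the cell cycle homology region bound by B-Myb and repressor complexes, its variant TTCGAA, and CCAAT, the NF-Y box. No motif contains another, and a match is a string of bases, not a bound site. The windows of Bub1b, Kif2c and Espl1, members called in most comparisons, are printed with matches in capitals. They lie at chr2:118597961-118598260 on the plus strand, chr4:117178723-117179022 on the minus strand and chr15:102296043-102296342 on the plus strand.
Bub1b: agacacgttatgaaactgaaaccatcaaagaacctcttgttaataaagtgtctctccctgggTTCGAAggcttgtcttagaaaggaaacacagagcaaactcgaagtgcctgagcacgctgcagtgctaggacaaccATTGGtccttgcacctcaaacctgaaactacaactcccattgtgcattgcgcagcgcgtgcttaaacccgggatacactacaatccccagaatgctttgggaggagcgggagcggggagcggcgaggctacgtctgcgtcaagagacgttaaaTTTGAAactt
Kif2c: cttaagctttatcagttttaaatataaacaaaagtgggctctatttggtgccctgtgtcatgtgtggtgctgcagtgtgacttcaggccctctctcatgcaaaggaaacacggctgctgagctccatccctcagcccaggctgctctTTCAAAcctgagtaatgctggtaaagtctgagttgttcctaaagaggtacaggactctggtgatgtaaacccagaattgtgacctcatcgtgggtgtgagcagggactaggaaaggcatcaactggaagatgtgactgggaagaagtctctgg
Espl1: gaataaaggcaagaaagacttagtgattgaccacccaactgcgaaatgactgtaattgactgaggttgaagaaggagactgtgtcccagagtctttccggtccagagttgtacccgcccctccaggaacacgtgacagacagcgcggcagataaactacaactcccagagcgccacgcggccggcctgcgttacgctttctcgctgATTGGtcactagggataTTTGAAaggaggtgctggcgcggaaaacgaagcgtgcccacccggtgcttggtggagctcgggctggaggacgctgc
In Bub1b the homology motif starts 40 bases after the transcription start, with the variant at -188 and an NF-Y box on the opposite strand at -113. In Espl1 the homology motif stands at -27 and an NF-Y box on the opposite strand at -44. In Kif2c the only match is a homology motif on the opposite strand at -103.

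Of the 36 genes with a window, 27 (75%) held TTTGAA, against 20.2% of the 27025 genes in the promoter table and 42.2% of 102 other mitotic genes. These other genes came from lists of 118 genes that also hold transcriptional regulators, such as Cdkn1a and Trp53, and the anaphase-promoting complex. CCAAT was in 26 of 36 (72.2%), against 41.1% of all genes and 57.8% of the other mitotic genes. TTCGAA was in 3 of 36 (8.33%), against 1.8% of all genes and 9.8% of the other mitotic genes. A window of 50 bases on either side of the start, chosen after the positions were seen, held TTTGAA in 25 of 36 members (69.4%), in 5.72% of all genes and in 28.4% of the other mitotic genes. Both TTTGAA and CCAAT were found in 23 members, among them Cdk1, Ccnb2, Plk1, Aurka, Ttk and Cdc20. None of the 3 motifs was found in the windows of Plk4, Birc5, Mad2l1, Nuf2, Kif18a and Nusap1, which says only that these letters are not in those bases.

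**Figure D4:**
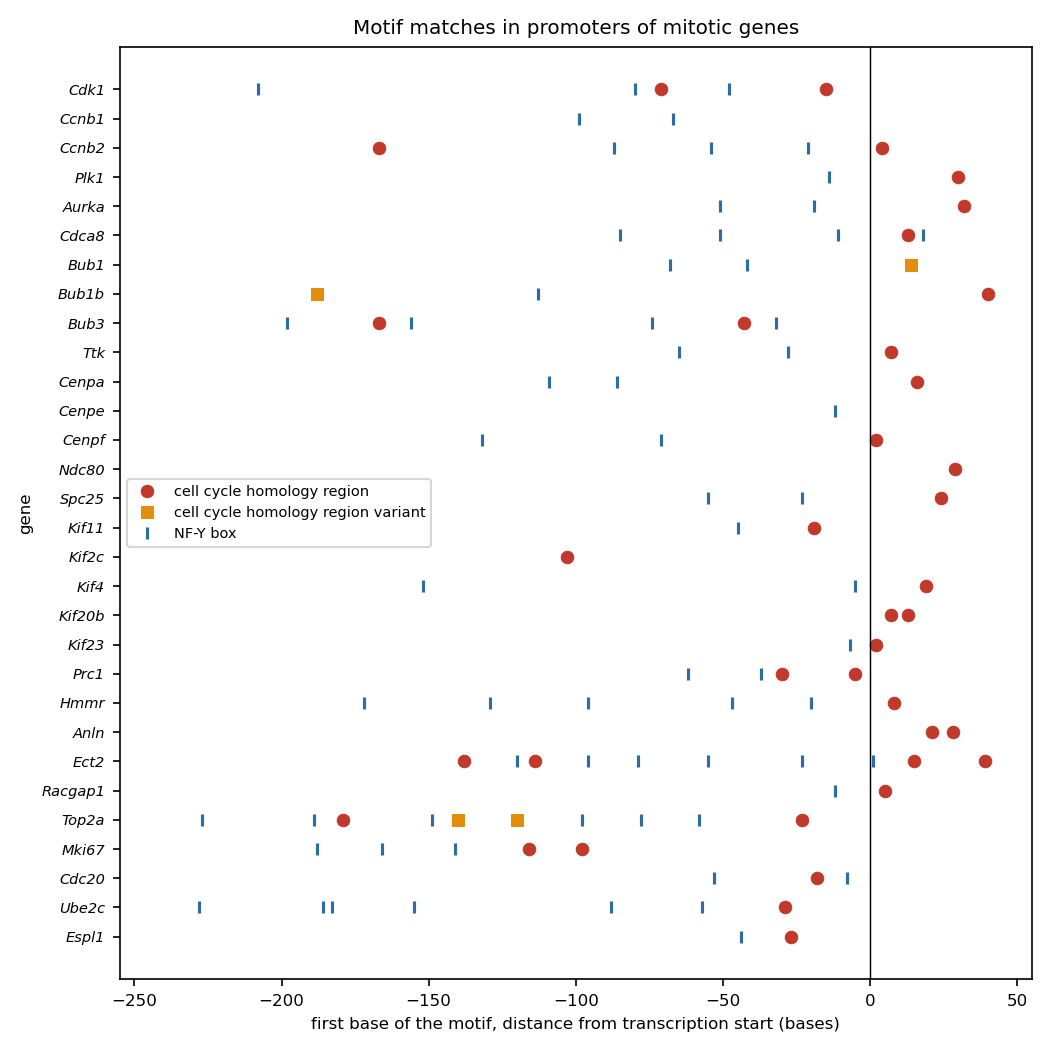
Position of motif matches in the promoters of mitotic genes that hold at least 1, with the distance in bases from the transcription start on the horizontal axis. Cell cycle homology motifs (red) gather within 50 bases of the start, in 25 of the 36 genes with a promoter window, with the variant as orange squares, and NF-Y boxes (blue) lie mostly before the start.

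Among the 9 kinases, cyclins and their transcription factor, 6 were lower than NT with each siRNA, 1 was lower than SiC with Si1AK and 4 with Si2AK. Ccna2 encodes cyclin A2, which acts in S phase and early mitosis. It stood at 4.32, 4.22, 4.56 and 4.34 with Si1AK and 4.47, 3.97 and 4.22 with Si2AK, against 4.64, 4.81 and 4.94 with SiC and 4.74, 4.69, 5.10 and 5.05 in NT. The siRNA arrays did not reach the controls. Its difference from SiC was -0.44 ± 0.15 with Si1AK, not called, and -0.57 ± 0.16 with Si2AK (adjusted p = 0.0315). From NT it was -0.54 ± 0.14 and -0.67 ± 0.15 (adjusted p = 0.036 and 0.00885).

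Ccnb1 encodes cyclin B1, the partner of Cdk1. It was at 4.24, 4.22, 4.31 and 4.46 with Si1AK and 4.34, 4.20 and 4.25 with Si2AK, against 4.19, 4.79 and 4.74 with SiC and 4.84, 4.89, 4.80 and 4.96 in NT. SiC replicate 1 was the lowest of all 14 arrays, so the siRNA groups overlapped SiC but not NT. Against NT the log2 difference was -0.57 ± 0.12 with Si1AK (adjusted p = 0.0157) and -0.61 ± 0.13 with Si2AK (adjusted p = 0.00818). Against SiC it was -0.26 ± 0.13 and -0.31 ± 0.14, not called. Its sister Ccnb2 fell against NT by 0.51 with Si1AK and by 0.52 with Si2AK (adjusted p = 0.00722 and 0.00512).

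Foxm1 encodes the transcription factor that turns on late cell cycle genes, and its level was lowest with Si2AK. It was at 2.40, 2.51, 2.69 and 2.48 with Si1AK and 2.24, 2.19 and 2.15 with Si2AK, against 2.61, 2.79 and 2.92 with SiC and 2.81, 2.61, 2.96 and 2.99 in NT. No Si2AK array overlapped any other group, while Si1AK overlapped both controls. With Si2AK the difference was -0.58 ± 0.12 from SiC (adjusted p = 0.0079) and -0.65 ± 0.11 from NT (adjusted p = 0.00222). With Si1AK it was -0.26 ± 0.11 and -0.33 ± 0.10, not called. The difference of Si2AK from Si1AK, -0.33 ± 0.11, was the largest fall of the set between the siRNAs and was not called (adjusted p = 0.0818). A dimmer Foxm1 probe gave -0.50 there (adjusted p over probes = 0.0592).

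Plk4 encodes the kinase that starts centriole duplication. Its levels were -0.68, -1.01, -0.79 and -0.93 with Si1AK and -0.74, -1.13 and -1.15 with Si2AK, against -0.10, -0.62 and -0.47 with SiC and -0.75, -0.58, -0.31 and -0.56 in NT. SiC replicate 1 was the highest of all arrays, and the call with Si2AK against SiC (-0.61 ± 0.16, adjusted p = 0.0306) was lost, at -0.40 (adjusted p = 0.202), without both arrays of raised signal. Plk1 encodes a kinase of spindle assembly and mitotic exit. It was at 5.15, 5.21, 5.22 and 5.13 with Si1AK and 5.45, 5.34 and 5.12 with Si2AK, against 5.24, 5.54 and 5.62 with SiC and 5.57, 5.58, 5.70 and 5.71 in NT. All NT arrays and SiC replicates 2 and 3 lay above all siRNA arrays, while SiC replicate 1 did not. The differences from NT were -0.46 ± 0.10 with Si1AK (adjusted p = 0.0137) and -0.34 ± 0.10 with Si2AK (adjusted p = 0.0485). Aurka, the kinase of centrosomes and spindle poles, fell against NT by 0.48 ± 0.09 with Si1AK (adjusted p = 0.0106) and stood at -0.31 ± 0.10 with Si2AK (adjusted p = 0.0656).

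Cdk1 itself was not called in any comparison. It was at 2.88, 2.94, 2.53 and 2.72 with Si1AK and 3.02, 3.06 and 2.53 with Si2AK, against 3.04, 2.79 and 2.80 with SiC and 3.43, 3.63, 2.98 and 2.85 in NT. The groups overlapped, and levels differed by slide: slide 2 minus slide 1 was -0.42 ± 0.07 (adjusted p = 0.00972). The difference from SiC was -0.11 with Si1AK (95% interval -0.54 to 0.33) and -0.00 with Si2AK (-0.47 to 0.46). The Si1AK interval holds the Ccna2 difference in the same comparison (-0.44) and the Si2AK interval does not hold that of Si2AK (-0.57). Against NT it was -0.46 with Si1AK and -0.35 with Si2AK. The dimmer Cdk1 probes differed from each other, at -0.97 and 0.02 with Si1AK against SiC and at -0.41 and 0.25 with Si2AK. Against NT they gave -0.64 and -0.41 with Si1AK and -0.09 and -0.18 with Si2AK. None of these was called over probes.

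All 4 genes of the chromosomal passenger complex, which releases faulty attachments, were lower than NT with Si1AK, 3 of 4 were with Si2AK, and 0 were called against SiC. Aurkb is its kinase. It was at -3.78, -3.54, -3.71 and -3.40 with Si1AK and -3.44, -3.72 and -3.26 with Si2AK, against -3.39, -3.08 and -3.04 with SiC and -2.93, -2.54, -2.98 and -2.63 in NT. The SiC mean lay between those of the siRNAs and NT. All SiC arrays were below all NT arrays, and SiC replicate 1 was also below Si2AK replicate 3. Against NT Aurkb showed the largest fall of the set with Si1AK, -0.84 ± 0.14 (adjusted p = 0.00464), and with Si2AK it was -0.71 ± 0.15 (adjusted p = 0.00863). The probe was dim, and the size depended on the processing. Over 21 alternative settings the Si1AK difference from NT ran from -0.93 to -0.20. That of Si2AK ran from -1.15 to -0.45 over 20 settings. Against SiC the Aurkb differences were -0.44 ± 0.15 and -0.30 ± 0.16, and SiC against NT was -0.40 ± 0.15, none of them called. Birc5 (survivin) and Cdca8 (borealin), which target the complex to centromeres, and its scaffold Incenp fell against NT with Si1AK by 0.50, 0.44 and 0.47. With Si2AK, Cdca8 and Incenp fell by 0.34 and 0.41, and Birc5 stood at -0.34 (adjusted p = 0.0741).

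Of 5 checkpoint genes, 1 was lower than SiC with Si1AK and 3 with Si2AK, and the same counts held against NT. Ttk encodes Mps1, the kinase that starts checkpoint signalling. Its levels were -0.95, -1.19, -0.92 and -1.02 with Si1AK and -1.03, -1.34 and -1.21 with Si2AK, against -0.20, -0.78 and -0.51 with SiC and -0.59, -0.68, -0.54 and -0.84 in NT. All siRNA arrays were below all controls, with SiC replicate 1 the highest of all. Ttk had the largest called fall with Si2AK against SiC, -0.70 ± 0.15 (adjusted p = 0.00917), which was -0.47 (adjusted p = 0.0603) without both arrays of raised signal. Against NT it was -0.53 ± 0.14 with Si2AK (adjusted p = 0.0212) and -0.35 ± 0.13 with Si1AK (adjusted p = 0.129).

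Mad2l1, whose protein binds Cdc20 to hold anaphase, fell with Si2AK by 0.43 ± 0.11 against SiC and by 0.56 ± 0.11 against NT (adjusted p = 0.0268 and 0.00399). With Si1AK it stood at -0.20 and -0.33, not called. Bub1, a kinase that brings checkpoint proteins to kinetochores, was at 2.14, 1.82, 2.32 and 2.35 with Si1AK and 2.10, 1.65 and 2.13 with Si2AK, against 2.24, 2.59 and 2.60 with SiC and 2.25, 2.36, 2.64 and 2.61 in NT. Si2AK lay below both control groups, but its differences of -0.52 ± 0.18 and -0.50 ± 0.17 were not called (adjusted p = 0.0888 and 0.0688), and Bub1 was higher on slide 2 by 0.33 ± 0.08. Bub3, a partner of Bub1 and BubR1 that also serves outside mitosis, was close to level: -0.05 (95% interval -0.22 to 0.11) with Si1AK and 0.01 (-0.16 to 0.19) with Si2AK against SiC.

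Of 7 kinetochore and centromere genes, 3 were lower than NT with each siRNA, and 1 was lower than SiC with each. Nuf2 is a subunit of the Ndc80 complex, which grips microtubules. It was at 1.30, 1.19, 1.52 and 1.44 with Si1AK and 1.37, 0.94 and 1.36 with Si2AK, against 1.55, 1.98 and 1.99 with SiC and 1.69, 1.89, 2.16 and 1.90 in NT. The siRNA and control arrays did not overlap. The difference from SiC was -0.48 ± 0.15 with Si1AK (adjusted p = 0.117) and -0.61 ± 0.17 with Si2AK (adjusted p = 0.03), and that from NT was -0.55 ± 0.14 and -0.68 ± 0.15 (adjusted p = 0.0415 and 0.0109). Of the other subunits, Spc24 was called lower than NT, by 0.53 with Si1AK and by 0.38 with Si2AK. Ndc80 stood at -0.31 and -0.29 and Spc25 at -0.20 and -0.34, not called. Differences between subunits were not tested. Cenpa, the histone variant that marks the centromere, fell against NT by 0.49 with each siRNA (adjusted p = 0.00909 with Si1AK and 0.00723 with Si2AK). Cenpe, a kinetochore motor, stood at -0.32 ± 0.24 and -0.53 ± 0.26, not called, and was higher on slide 2 by 0.53 ± 0.11.

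The 7 kinesins had the lowest group medians against SiC, -0.48 with Si1AK and -0.57 with Si2AK. Of these, 3 were lower than NT with Si1AK and 5 with Si2AK. Kif20a moves passenger proteins to the midzone in anaphase. It was at 3.39, 3.54, 3.48 and 3.64 with Si1AK and 3.67, 3.39 and 3.20 with Si2AK, against 3.60, 4.04 and 3.93 with SiC and 4.04, 4.25, 4.14 and 4.21 in NT. All siRNA arrays were below NT and some reached SiC replicate 1. Against NT it showed the largest fall of the set with Si2AK, -0.74 ± 0.13 (adjusted p = 0.00258), and -0.65 ± 0.12 with Si1AK (adjusted p = 0.00711).

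Kif18a damps the movements of chromosomes at metaphase. Its levels were 0.00, -0.19, 0.36 and 0.25 with Si1AK and 0.14, -0.16 and 0.07 with Si2AK, against 0.45, 0.64 and 0.67 with SiC and 0.49, 0.80, 0.64 and 0.55 in NT. There was no overlap between siRNA and control arrays. It differed from NT by -0.51 ± 0.13 with Si1AK (adjusted p = 0.0315) and by -0.60 ± 0.14 with Si2AK (adjusted p = 0.0109), and from SiC by -0.57 ± 0.15 with Si2AK (adjusted p = 0.024) and by -0.48 ± 0.14 with Si1AK (adjusted p = 0.0739). With the replicate number as a block, the Si1AK difference from NT was not called (adjusted p = 0.0536), and neither was that of Ect2 (adjusted p = 0.0692). Kif23, the midzone motor of cytokinesis, and Kif4, a chromosome motor, fell against NT with Si2AK by 0.38 and 0.32 (adjusted p = 0.0181 and 0.0473). Kif11, which pushes the poles apart, stood at -0.52 ± 0.23 and -0.59 ± 0.25 against NT, and Kif20b, another midzone motor, at -0.39 ± 0.21 and -0.45 ± 0.23. Neither was called, and NT replicates of Kif11 ranged from 0.10 to 1.24.

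Of 5 spindle assembly genes, Dlgap5 was the only one called in the comparisons of an siRNA with a control. Tpx2, which activates Aurora A on microtubules, stood at -0.27 and -0.14 against NT, Prc1, which bundles midzone microtubules, at -0.38 and -0.18, Nusap1, another microtubule bundler, at -0.40 and -0.22, and Hmmr, a spindle pole protein, at -0.19 and -0.19. A dim second Tpx2 probe was lower with Si1AK by -0.79 against SiC and by -0.72 against NT (adjusted p over probes = 0.0127 and 0.00909). Of 3 cytokinesis genes, Ect2, the exchange factor that sets the contractile ring, fell against NT by 0.41 with Si1AK and by 0.42 with Si2AK (adjusted p = 0.0403 and 0.0289). Racgap1, its partner, stood at -0.27 and -0.22, and Anln, a scaffold of the ring, at -0.22 and -0.22, not called.

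**Figure D5:**
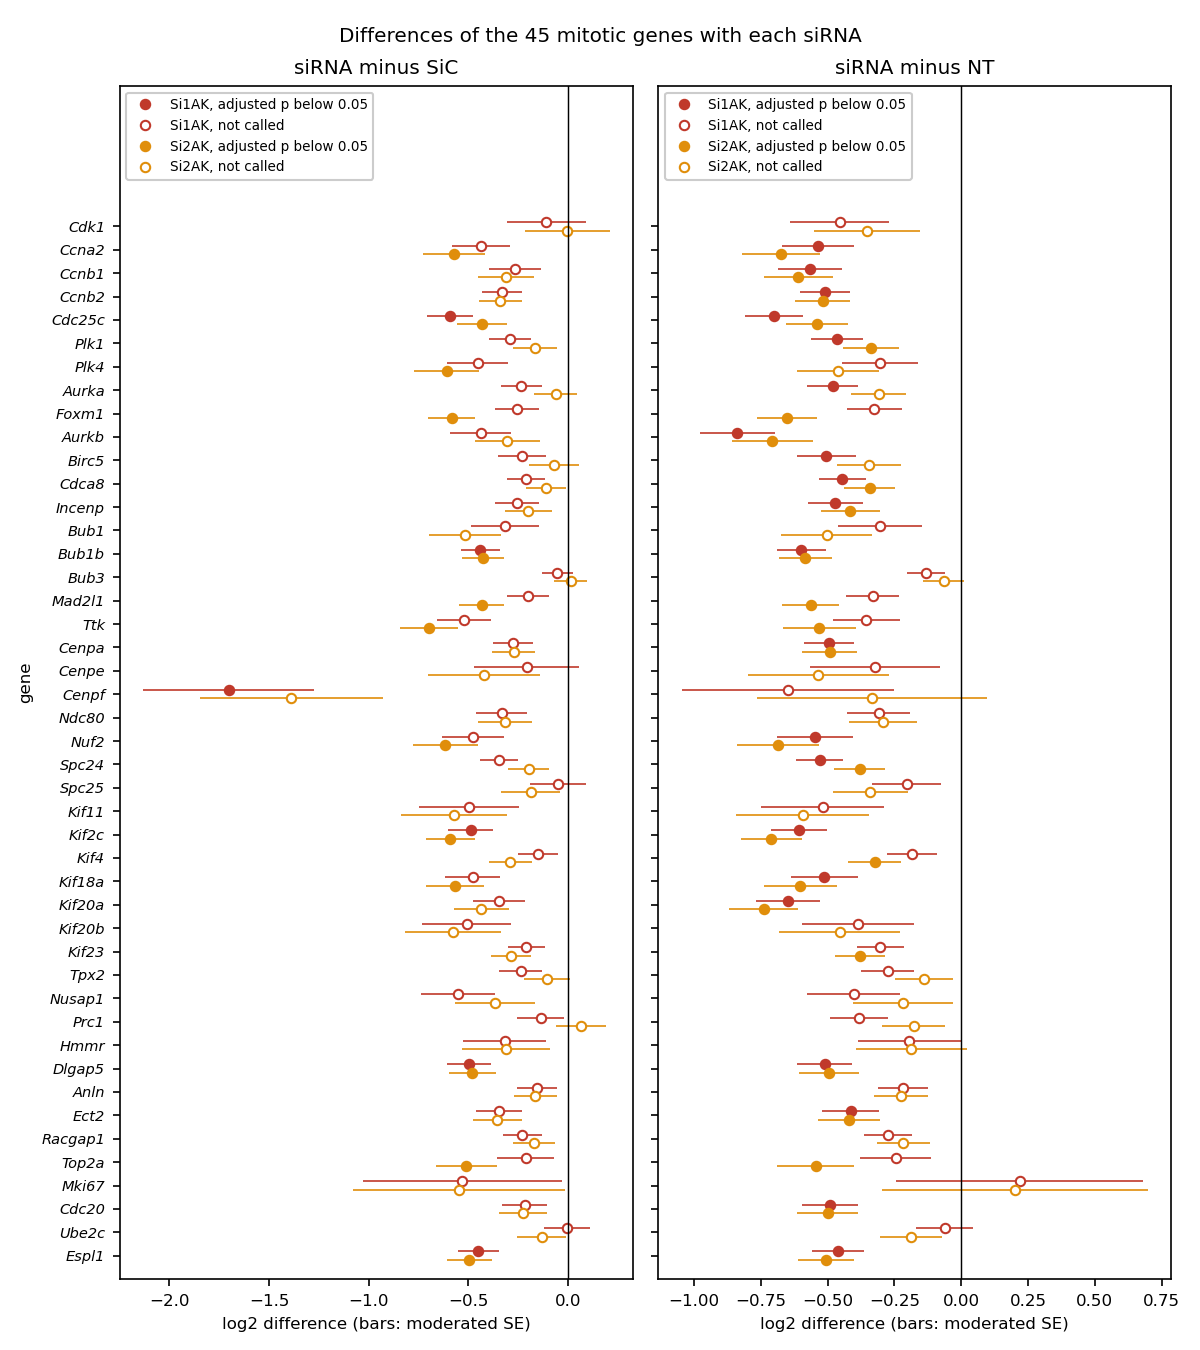
Log2 differences of each of the 45 mitotic genes with Si1AK (red) and Si2AK (orange) minus SiC (left) and minus NT (right, on a wider scale), with the moderated SE as bars and filled points for an adjusted p below 0.05. Nearly all points lie left of 0, filled points are more frequent against NT (21 and 25) than against SiC (6 and 13), and Cenpf and Mki67 have the widest bars.

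Of the last 5 genes, which serve chromosome structure and anaphase, Espl1 and Cdc20 were lower than NT with both siRNAs. Cdc20, the activator of the anaphase-promoting complex, fell by 0.49 ± 0.11 with Si1AK and by 0.50 ± 0.11 with Si2AK (adjusted p = 0.0166 and 0.0117). Top2a encodes the topoisomerase that untangles sister chromatids. It was at 3.56, 3.39, 3.71 and 3.69 with Si1AK and 3.36, 3.07 and 3.44 with Si2AK, against 3.45, 4.02 and 3.94 with SiC and 3.80, 3.74, 3.94 and 3.85 in NT. All Si2AK arrays were below all controls, with differences of -0.51 ± 0.15 from SiC (adjusted p = 0.0492) and -0.54 ± 0.14 from NT (adjusted p = 0.0238). With Si1AK they were -0.21 ± 0.14 and -0.25 ± 0.13, not called. Ube2c, the ubiquitin-conjugating enzyme of the anaphase-promoting complex, stayed near level with Si1AK, at -0.00 (95% interval -0.26 to 0.25) against SiC and -0.06 (-0.29 to 0.17) against NT.

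Mki67, the proliferation marker Ki-67, could not be read well from its brightest probe. It was at 4.74, 4.54, 5.15 and 5.10 with Si1AK and 4.94, 4.52 and 5.14 with Si2AK, against 5.10, 5.57 and 5.57 with SiC and 5.07, 5.09, 2.91 and 5.58 in NT. NT replicate 3, at 2.91, was far below the other NT arrays, and the differences from NT were 0.22 ± 0.46 and 0.20 ± 0.50. On the second Mki67 probe the same array was at 4.99, within the other NT arrays. That probe gave -0.39 and -0.44 against NT and -0.44 and -0.49 against SiC, with Si1AK and Si2AK in that order, and no adjusted p over probes below 0.126. Of the set, 14 genes had several usable probes, and 18 of the 19 other probes had the sign of the brightest in each comparison of an siRNA with a control.

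Between the siRNAs, Si2AK minus Si1AK, 0 of 45 members were called by limma, where 6.13% of all genes were lower and 6.31% higher. At an unadjusted p below 0.05 there was 1 member lower, Foxm1, and 0 higher. The median difference was -0.01, beside 0.10 over all genes. For 35 of 45 members the 95% interval of the difference lay within 0.5 of 0 on the log2 scale, so smaller differences were not resolved. All 7 kinesins (-0.07 to -0.14) and all 5 chromosome structure and anaphase genes (down to -0.30) were on the negative side, and all 4 passenger and all 5 spindle assembly genes were on the positive side (up to 0.16 and 0.20), with no difference between groups tested.

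Between the controls, SiC minus NT, 0 of 45 members were called by limma, as were 0% of all genes. At an unadjusted p below 0.05 there were 7 members lower and 1 higher, beside 1015 lower and 570 higher among all genes. The arrays of the groups did not overlap for 9 members, 8 lower and Cenpf higher. No such count is given for all genes, so it does not set the members apart. SiC replicate 1 was the lowest of the SiC arrays for 36 of 45 members, and without both arrays of raised signal the median of the members was -0.01.

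The SiC comparisons depended on the slide. On slide 1, where SiC replicate 1 was the only SiC array, the median over the members was -0.16 for Si1AK and -0.18 for Si2AK minus SiC, with 36 and 31 of 45 below 0. On slide 2 it was -0.34 and -0.46, with all 45 below 0 for both siRNAs. Against NT the slides gave -0.47 and -0.40 on slide 1 and -0.39 and -0.47 on slide 2. With slide as a block, 9 members were lower than SiC with Si1AK and 14 with Si2AK, and 26 were lower than NT with each. Calls over all genes rose as well. With Si1AK, the genes lower than SiC went from 263 to 484 and those lower than NT from 647 to 1061. With Si2AK they went from 996 to 1271 and from 1639 to 2003. The slide itself was tied to 4 members (8.89%, beside 8.49% of all genes), namely Cdk1, Bub1, Cenpe and Nusap1. How far the slide or the raised signal shaped the SiC comparisons was not tested.

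Within groups, most members varied together from array to array. The correlation of a gene with the mean of the other 44, after group means were removed, had a median of 0.61 over the 45 members (14 arrays, given as a description, since the points share array, slide and scaling). It was above 0.5 for 26 members and highest for Prc1 (0.84) and Ect2 (0.84). It was negative for 7, lowest for Cdk1 (-0.51) and Cenpf (-0.42). For the 5 members called in 4 comparisons (Bub1b, Cdc25c, Dlgap5, Kif2c and Espl1) it was only -0.09 to 0.21. Its median was 0.62 over the 16 members called in none.

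Further mitotic genes outside the set were taken from lists of 118 genes, of which 117 could be tested. The lists also hold transcriptional regulators, and 1 of these, Cdkn1a, is among the genes called higher. With Si1AK, 12 of these 117 genes were lower and 1 higher than SiC, where 1.23% and 3.18% of all genes were. With Si2AK the counts were 30 and 2, beside 4.66% and 8.5% of all genes. Against NT, 36 of the 117 were lower and 1 higher with Si1AK, beside 3.03% and 4.03% of all genes. With Si2AK 51 were lower and 2 higher, beside 7.67% and 7.96%. The medians of the 117 were -0.22 and -0.26 against SiC and -0.30 and -0.36 against NT, with Si1AK and Si2AK in that order. Over all genes they were -0.06 and -0.02 against SiC and -0.09 and 0.02 against NT. The kinetochore list of 26 had the most calls, with 5 lower than SiC with Si1AK and 11 with Si2AK. Cenph, of the inner kinetochore, was at 2.13, 2.14, 2.21 and 2.38 with Si1AK and 1.80, 1.84 and 1.85 with Si2AK, against 2.47, 2.82 and 2.69 with SiC and 2.79, 2.90, 2.71 and 2.80 in NT. The groups stood in steps, with Si2AK below Si1AK and both below the controls. Its difference from SiC was -0.44 ± 0.09 with Si1AK and -0.83 ± 0.10 with Si2AK (adjusted p = 0.0216 and 0.000489), and that between the siRNAs was -0.39 ± 0.09 (adjusted p = 0.0187).

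The remaining lists are short, and counts of a few genes in them do not by themselves stand apart from all genes. Of all genes, 1.23% and 4.66% were lower than SiC with Si1AK and Si2AK, and 3.03% and 7.67% lower than NT. The entry and exit regulators gave 2 and 4 of 15 lower than SiC, among them Nek2, a centrosome kinase, by -0.52 with Si1AK and -0.46 with Si2AK. Pkmyt1, which restrains Cdk1, was lower than SiC with Si1AK (-0.49 ± 0.07, adjusted p = 0.00193). Of condensin, 1 and 2 of 8 were lower than SiC, with Ncapd2 at -0.53 and -0.55. Of other mitotic kinesins, Kif15 was lower in both comparisons (-0.44 and -0.77), within 1 and 2 of 6 called. The centrosome and midbody list had 3 and 4 of 19 lower than SiC, and the checkpoint and cohesion list 0 and 3 of 11. Of the anaphase-promoting complex and its inhibitors, 0 and 2 of 17 were lower than SiC, with medians of -0.04 and 0.03, and 2 and 4 were lower than NT, with medians of -0.17 and -0.16. The larger of the calls against SiC was Fbxo5 (Emi1), an inhibitor of that complex, at -0.78 ± 0.09 with Si2AK (adjusted p = 0.000422). Zwint, a kinetochore protein, went the other way with Si2AK, at 0.59 ± 0.16 against SiC (adjusted p = 0.0332).

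Among 15 regulators of the mitotic programme, Cdkn1a was higher with both siRNAs. It encodes p21, an inhibitor of cyclin-dependent kinases that is a target of p53. Its levels were 4.60, 4.81, 4.52 and 4.26 with Si1AK and 4.43, 4.21 and 4.34 with Si2AK, against 3.58, 3.72 and 3.86 with SiC and 3.88, 3.74, 3.78 and 4.004 in NT. All siRNA arrays were above all controls. Cdkn1a rose by 0.83 ± 0.13 with Si1AK and by 0.61 ± 0.14 with Si2AK against SiC (adjusted p = 0.00389 and 0.0123), and by 0.70 ± 0.12 and 0.48 ± 0.13 against NT (adjusted p = 0.0045 and 0.0242). E2f4 and Trp53 were lower with Si2AK than with SiC, by -0.51 ± 0.13 and -0.66 ± 0.17 (adjusted p = 0.023 and 0.0217), and neither was called with Si1AK. None of the genes of the MuvB core (Lin9, Lin37, Lin52, Lin54) nor Mybl2, which encodes B-Myb, was called in any of these 4 comparisons.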

How the data were processed

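RNA of 14 samples was hybridised to 1-colour (Cy3) Agilent arrays. Signal intensity per spot had been extracted by the authors with Agilent Feature Extraction 10.7.3.1, which subtracted background, per the file headers. The deposited 0 or 1 marks gave other information on each spot (well above background, saturated, uneven). The authors' deposited log2 value table, made with limma per the submitters' processing notes, was an alternative; its columns followed the log2 mean signal (r of 0.991 to 1.00) with medians near 6.51, and its background step is not given in the sources used here.

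Processed signals were put on the log2 scale, the 75th percentile of each array was subtracted, control and uneven spots were dropped and spots of a probe averaged. A probe was kept (30321 of 55681) if some group had it well above background on all its arrays, and the brightest stood for its gene. Genes were named through RefSeq accessions (GRCm38.p6) or, failing that, by the array. A limma 3.58.1 model (R 4.3.3) over 14 arrays, with 10 residual degrees of freedom, was checked on simulated data, and p-values were adjusted over 21370 genes (Benjamini-Hochberg, threshold 0.05). The number of arrays limits the precision. Groups and replicates came from the sample titles. Same-numbered Si1AK and NT arrays deviated together (r of 0.240, 0.118, 0.176 and 0.123) and shared a slide, so the blocked values are given for that comparison where they change a call.

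The members and all lists were chosen with earlier results of these data known. All members could be named. Values on every array are given for the 8 called members of largest difference per comparison and for 7 set members (Cdk1, Ccnb1, Aurkb, Plk1, Bub1, Top2a and Mki67). Of other mitotic genes, up to 4 called genes of a list were named by size, with Zwint, the MuvB genes and Mybl2 added after their values were seen. Alternatives covered normalization, background, the dim-probe filter, the choice of probe, slide, replicate number, array weights and left-out arrays.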

Additional observations from a re-analysis of the deposited data

Results flagged for a closer look

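Cdca8 in NT replicate 3, at 5.23 on the log2 scale, lay below the other NT arrays, the nearest of which was at 5.32. Bub1b in Si1AK replicate 4, at 1.67, lay below the other Si1AK arrays, the nearest of which was at 1.83. In both, the gap to the nearest array took up most of the range of the 4 arrays, past the critical value of Dixon's test. There were 90 such groups of 4, over 45 genes and the Si1AK and NT arrays, and chance flags about 5% of groups by this measure, more than the 2 seen.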

How the results depend on the processing

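None of the 65 called differences of members changed sign under the alternatives run; members that were not called did, as on slide 1. Members lower in Si1AK than in SiC numbered 6, and 18 after quantile normalization, 16 with the authors' value table, 10 without both arrays of raised signal and 33 with array weights. They numbered 1 with only the groups compared, 2 with the replicate block, and 0 with no filter on dim probes and on slide 1 or slide 2 alone. Leaving out 1 array gave 0 to 6: 0 without Si1AK replicate 1 or 2, 3 without Si1AK replicate 3, and 1 without replicate 4 of Si1AK or either of replicates 2 and 3 of SiC. Of all genes, 263 were lower in Si1AK than in SiC, and 371 with quantile normalization and 369 with the value table. Without both arrays of raised signal 329 genes were lower, and with array weights 1600. With only the groups compared 75 were lower, with no filter 86, and on leaving out 1 array of either group 93 to 241. Members lower in Si2AK than in SiC numbered 13, and 26 with quantile normalization or the value table, 23 with array weights, 3 with no filter, and 0 with only the groups compared or on either slide alone. Leaving out 1 array gave 5 to 17: 7 without Si2AK replicate 2 or SiC replicate 2, and 5 without replicate 3 of either. Of all genes, 996 were lower in Si2AK than in SiC, and 1397 with quantile normalization, 1376 with the value table and 1716 with array weights. With no filter 533 genes were lower, with only the groups compared 20, and on leaving out 1 array of either group 650 to 1159. Members lower in Si1AK than in NT numbered 21, and 11 with no filter and 0 on either slide alone, with 12 to 20 on leaving out 1 array (12 and 13 without Si1AK replicates 1 and 2). Members lower in Si2AK than in NT numbered 25, and 16 with no filter, 0 on slide 1 and 3 on slide 2, with 15 to 24 on leaving out 1 array (15 and 16 without Si2AK replicates 2 and 3). Of all genes, 647 were lower in Si1AK than in NT, 255 with no filter and 290 to 496 on leaving out 1 array of either group. For Si2AK against NT these counts were 1639, 970 and 1088 to 1461. Between the siRNAs, 2 members were lower in Si2AK with quantile normalization or the value table and 1 with the mean of all probes or with array weights, and 1 was higher with array weights or without both arrays of raised signal. SiC against NT gave 0 lower in all settings. The slides alone hold fewer arrays and the fit with no filter tests more genes; for the rest the cause was not tested. With the replicate block the counts of lower members were 2 and 11 against SiC and 19 and 21 against NT, with Si1AK and Si2AK in that order. Of all genes, 211 and 957 were then lower than SiC and 651 and 1395 lower than NT. Of the 14 arrays, 5 correlated best with their own number. Quantile normalization moved the median of all genes from -0.06 to 0.06 for Si1AK minus SiC, from -0.09 to 0.03 for Si1AK minus NT and from 0.10 to -0.04 for Si2AK minus Si1AK. The share of called genes that were higher was 64.6% for Si2AK against SiC, and 54.5%, 55.6% and 56.4% with quantile normalization, the value table and array weights. For Si1AK against SiC it was 72.1%, and 52.5% with array weights.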
